A study of Mus musculus with 8 samples.

Results

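The genes followed here are 44 mouse transcription factor genes: homeobox genes outside the Hox clusters, and Pax genes, all chosen by name as regulators of embryonic patterning. Of these 44, 35 had a row in the deposited tables, out of 17551 gene symbols and 19353 RefSeq transcripts in all. Each of the 35 had a single row, that of 1 RefSeq transcript. The other 9 (Nkx2-5, Dlx5, Irx1, Irx4, Irx6, Msx1, Otx2, Emx1 and Onecut1) had none, and no expression of theirs was analysed here. Values are normalised read counts per transcript, that is, reads divided by the size factor of the library. A value of 20 or more was used as the mark of a measured gene, which 15 of the 35 reached in at least 1 library.

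RNA came from lineage-negative cells of mouse bone marrow, a fraction enriched in haematopoietic stem and progenitor cells. There were 8 libraries, 2 for each of 4 contexts: cells labelled as transduced with nothing (NT), with HOXA9 (a homeobox gene), or with PML-RARa or MLL-AF9 (fusion genes of leukaemia). All mice were of strain C57BL/6 and all 8 libraries are labelled Ring1a-/- Cdkn2a-/-, in the controls too. Ring1a and Ring1b are the alternative ubiquitin ligases of Polycomb repressive complex 1 (PRC1), and Cdkn2a is a tumour suppressor locus. The control library of each context is labelled Ring1b WT and its partner, called OHT here, Ring1b KO; the protocol names 72 h with ethanol or OHT. Each combination of context and genotype has 1 library, and the sources used here give neither the age and number of mice nor the driver of the Ring1b deletion. The NT table heads its columns Empty, so an empty vector in those cells cannot be told apart from no vector.

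Homeobox genes encode factors that bind DNA through a homeodomain, and Pax factors bind through a paired domain, which some of them combine with a homeodomain. In the embryo they divide the brain, limbs, kidney, gut and other organs into territories. In cells of other lineages they are textbook targets of Polycomb repression: PRC2 methylates histone H3 and PRC1 ubiquitylates histone H2A over their promoters, which are often rich in CpG dinucleotides.

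The promoters of 4 members are shown because these genes stand for the patterns reported below. Lhx2 was higher with OHT in every context, Six2 was higher with OHT in NT and MLL-AF9, Dlx1 was present in the HOXA9 and PML-RARa controls, and Gbx2 was measured in all 4 controls. Each run is the 250 bases before the RefSeq start on the gene's strand, from build GRCm38.p6, 5′ to 3′, with every CpG in capitals. Lhx2 lies at chr2:38339031-38339280 on the plus strand (the more upstream of its 2 listed starts), Six2 at chr17:85688255-85688504 on the minus strand, Dlx1 at chr2:71529195-71529444 on the plus strand and Gbx2 at chr1:89931177-89931426 on the minus strand.
Lhx2: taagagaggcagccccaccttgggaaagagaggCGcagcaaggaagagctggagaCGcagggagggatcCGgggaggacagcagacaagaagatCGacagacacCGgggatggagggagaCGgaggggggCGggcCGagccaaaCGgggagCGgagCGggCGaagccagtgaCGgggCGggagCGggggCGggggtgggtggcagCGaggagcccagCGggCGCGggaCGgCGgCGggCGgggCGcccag
Six2: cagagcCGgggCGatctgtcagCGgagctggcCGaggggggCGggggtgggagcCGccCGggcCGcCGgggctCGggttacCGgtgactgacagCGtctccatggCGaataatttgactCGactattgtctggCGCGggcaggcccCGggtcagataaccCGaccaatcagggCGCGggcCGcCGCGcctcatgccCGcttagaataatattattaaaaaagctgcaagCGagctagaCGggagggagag
Dlx1: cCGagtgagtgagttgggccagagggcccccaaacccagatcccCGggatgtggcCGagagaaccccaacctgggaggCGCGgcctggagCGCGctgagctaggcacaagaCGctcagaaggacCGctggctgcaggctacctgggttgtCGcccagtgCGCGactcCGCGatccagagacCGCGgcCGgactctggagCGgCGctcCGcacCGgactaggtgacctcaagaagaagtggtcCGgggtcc
Gbx2: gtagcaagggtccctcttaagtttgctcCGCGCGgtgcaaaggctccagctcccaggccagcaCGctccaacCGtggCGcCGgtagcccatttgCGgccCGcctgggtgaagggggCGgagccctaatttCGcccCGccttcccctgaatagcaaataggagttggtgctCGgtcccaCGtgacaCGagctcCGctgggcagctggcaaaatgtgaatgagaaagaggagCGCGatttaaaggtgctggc

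These windows hold 25 CpGs for Lhx2, 26 for Six2, 22 for Dlx1 and 18 for Gbx2. Promoter windows of this kind were at hand for 33 of the 44 members (41 starts, of which 9 belong to 6 genes with no row), where the median was 18 CpGs and 58.5% had 15 or more. Over all 32851 RefSeq starts the median was 6 and 27.3% had 15 or more. Members that reached 20 in some library had a median of 21.5 CpGs (14 starts of 12 genes), and members with a row that never did had a median of 15 (18 starts of 15 genes). Their median GC contents were 65.8% and 57.8%. Relative to the number expected from the C and G content, the order turned, with medians of 0.762 and 0.834. These are counts of letters in a window and say nothing of binding.

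The libraries held from 4226751 to 6998223 recovered reads, and 1 read is worth a value of 0.827 to 1.36. By counting error alone, 20 reads have a 95% Poisson interval from 12.2 to 30.9, and 1 read from 0.0253 to 5.57. The intervals on folds likewise cover counting error only. No entry in the tables is below 1 read, no row is at 1 read in all 8 libraries, and the lowest row total is 9 reads. An entry of 1 read may thus hide a true 0, and whether 1 was added to every count is not stated. Folds and intervals over such an entry take it as 1 observed read, and their size rests on that. The whole-transcript value of Rnf2, which encodes Ring1b, ran from 666 to 990.4 in the controls and from 767 to 856 with OHT, so it does not check the labels, since the part removed is not stated. Ring1, labelled as knocked out throughout, still had values of 109 to 191 in the controls and 23.8 to 77.8 with OHT (limma adjusted p = 0.040). Cdkn2a, also labelled as deleted, had values of 25.6 to 67.2 in the controls and 30.1 to 48.8 with OHT, so these values do not check those labels either.

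The control libraries differed in how many members they held. In NT, 3 of 35 members stood at 20 or more (Nkx2-3, Gbx2 and Emx2), and in MLL-AF9 also 3 (Nkx2-3, Irx5 and Gbx2). The HOXA9 control had 12 and the PML-RARa control 10. Over all transcripts the share at 20 or more was nearly level, with 52.1% for NT, 53.4% for HOXA9, 53.7% for PML-RARa and 51.8% for MLL-AF9, against 8.57%, 34.3%, 28.6% and 8.57% of the members. At the other end, 22 members in the NT control and 25 in the MLL-AF9 control were at the lowest entry of 1 read, but 9 in HOXA9 and 8 in PML-RARa. These were 62.9% of the members for NT, 25.7% for HOXA9, 22.9% for PML-RARa and 71.4% for MLL-AF9. Over all transcripts the shares at 1 read were 16.5%, 15.3%, 16.2% and 18.2% in the same order. Depth differed between these libraries, and its part in the result was not tested.

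With OHT the number at 20 or more ranged from 6 to 11, against 3 to 12 in the controls. It was 7 for NT, 11 for HOXA9, 6 for PML-RARa and 9 for MLL-AF9, where all transcripts gave 53.3%, 53.7%, 53.1% and 52.1%. Thus the count was higher with OHT in NT and MLL-AF9, lower in PML-RARa, and apart by 1 gene in HOXA9, where at a mark of 10 both libraries held 13. The 35 members' values summed to 213 in the NT control and 509 with OHT, and to 564 and 1075 in MLL-AF9. In HOXA9 they summed to 811 and 1065, and in PML-RARa to 1146 and 747. The higher HOXA9 sum rests on Pitx1 alone, at 71.4 in the control and 389 with OHT.

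**Figure D1:**
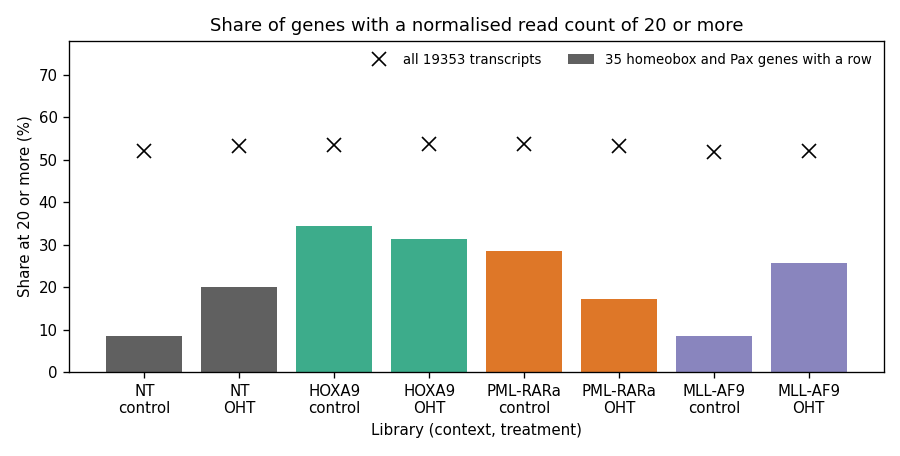
Share of the 35 genes (bars, y axis in percent) and of all 19353 transcripts (crosses) with a normalised read count of 20 or more in each of the 8 libraries (x axis). The bars run from 8.57% in the NT and MLL-AF9 controls to 34.3% in the HOXA9 control, while the crosses stay between 51.8% and 53.7%.

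Of the 22 members at 1 read in the NT control, 14 had more than 1 read with OHT, and 1 member went the other way. In MLL-AF9 it was 15 of 25, with none the other way. HOXA9 gave 4 of 9 with 2 the other way, and PML-RARa 3 of 8 with 7 the other way. For all transcripts at 1 read in the control the share with more than 1 read with OHT was 38.2% for NT, 36.6% for HOXA9, 34.1% for PML-RARa and 34.3% for MLL-AF9. For the other way no share over all transcripts is given, so those member counts have no background here. The OHT library was the shallower one in each of the 4 pairs.

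**Figure D2:**
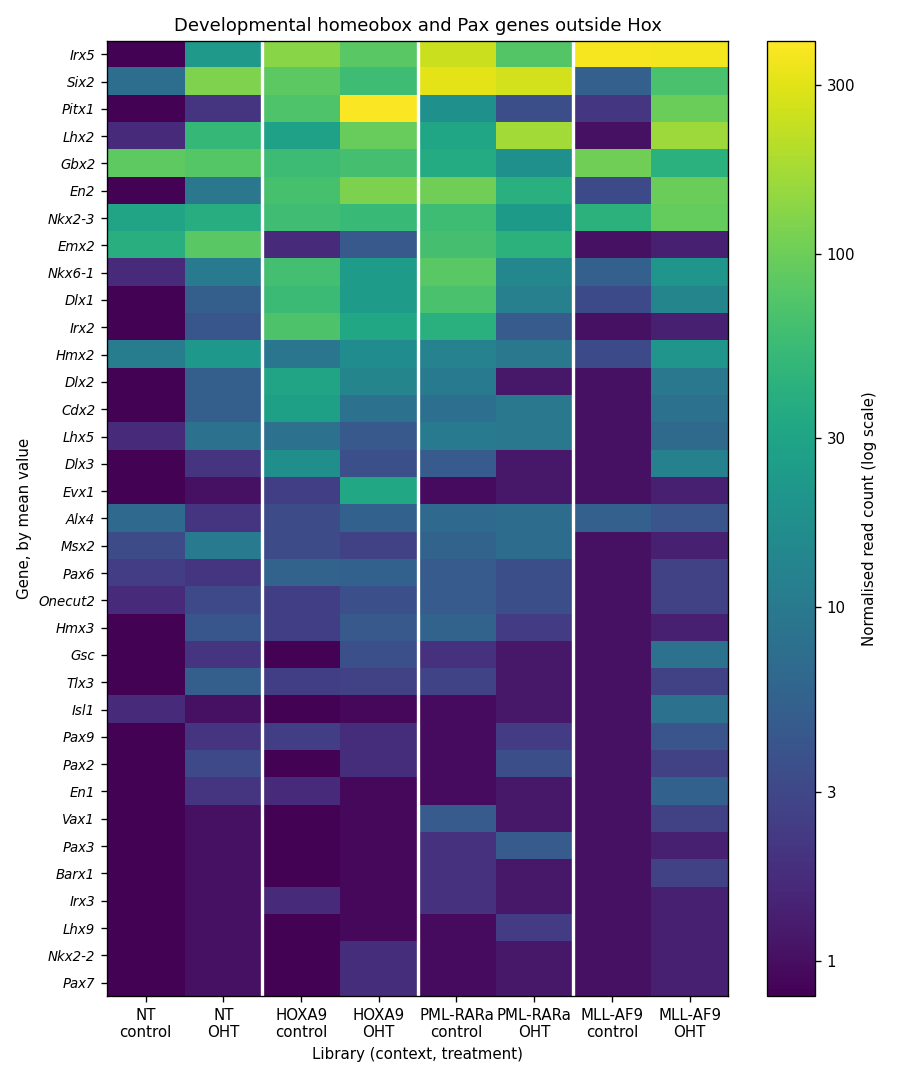
Normalised read count (colour, log scale) of the 35 genes with a row (y axis, ordered by mean value) in each of the 8 libraries (x axis, white lines between contexts). The NT and MLL-AF9 control columns are dark for nearly all genes, and Irx5 in the MLL-AF9 control, at 364, is the brightest exception.

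The comparison of OHT with control asks how these genes differ between libraries labelled Ring1b KO and Ring1b WT, all labelled Ring1a-/-. Every Ring1b KO library is an OHT library and every Ring1b WT library a control. Exposure to OHT and loss of Ring1b therefore cannot be told apart. With 1 library on each side there is no test within a context, so members at least 2-fold apart on the log2(value + 1) scale, with 20 or more in the higher library, were counted. In NT, 3 of 35 were higher (Lhx2, Six2 and Irx5) and 0 lower, where 7.57% of all transcripts were higher and 4.83% lower. In MLL-AF9, 7 were higher (Lhx2, Six2, Nkx2-3, Nkx6-1, En2, Pitx1 and Hmx2) and 1 lower (Gbx2), against 8.11% and 8.75% of all transcripts. The 3 of NT (8.57%) are close to the share over all transcripts, and the 7 of 35 in MLL-AF9 are above it.

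In HOXA9, 3 members were higher with OHT (Lhx2, Pitx1 and Evx1) and 5 lower (Nkx6-1, Dlx1, Dlx2, Irx2 and Cdx2), beside 5.08% and 3.43% of all transcripts. In PML-RARa, Lhx2 alone was higher, and 6 were lower (Nkx2-3, Nkx6-1, Dlx1, Irx2, Irx5 and En2), beside 5.00% and 7.65%. The lower members made up 14.3% of the 35 in HOXA9 and 17.1% in PML-RARa. Over all 35 rows the median log2 ratio was 0.75 for NT, 0.06 for HOXA9, -0.35 for PML-RARa and 0.86 for MLL-AF9, beside 0.16, 0.06, 0.03 and 0.04 over all transcripts. A row at 1 read in both libraries has by scaling alone a ratio of 0.16, 0.06, 0.16 and 0.20 in these contexts, so single ratios of low members carry no direction. In bulk RNA, more RNA per cell and more cells of a kind cannot be told apart.

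**Figure D3:**
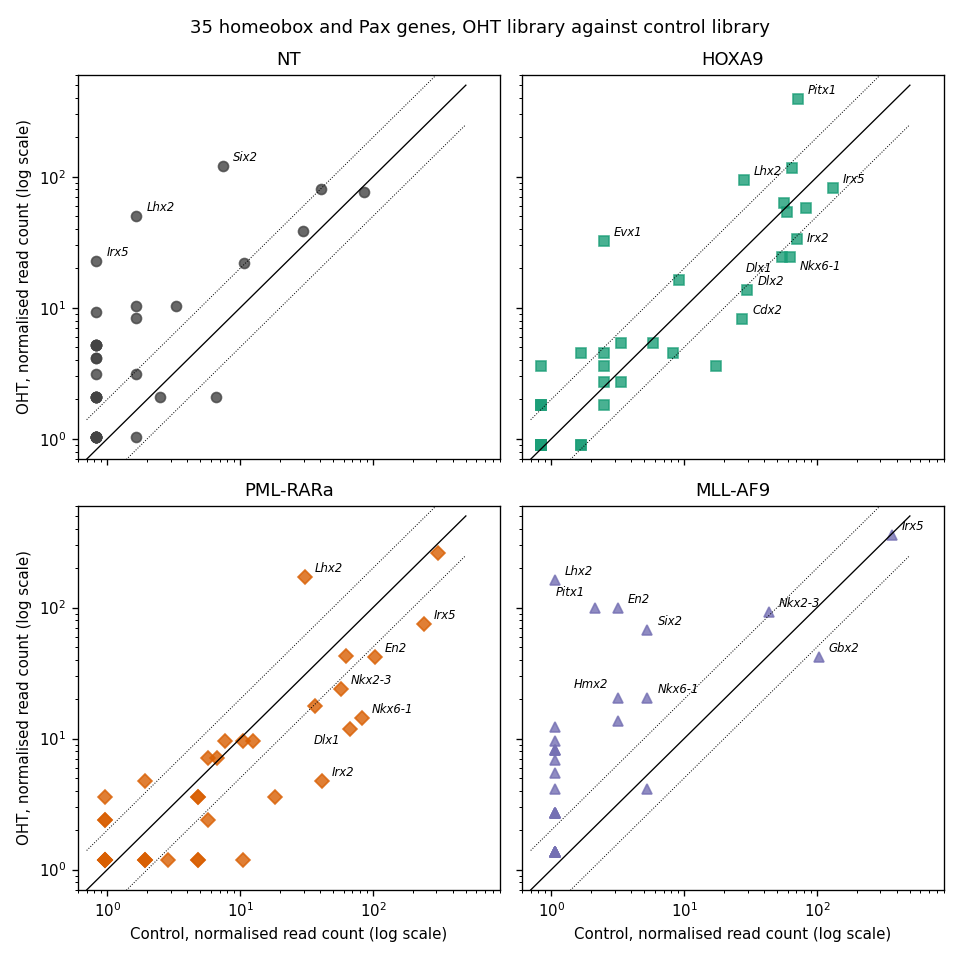
Normalised read count of the 35 genes in the OHT library (y axis, log scale) against the control library (x axis, log scale) of each context, 1 point per gene. The solid line marks equal values and the dotted lines 2-fold differences. Names are given to Irx5 and to genes at least 2-fold apart with 20 or more in the higher library, of which MLL-AF9 has 7 above the line and 1 below.

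Lhx2, a LIM homeobox gene needed for forebrain, eye and fetal liver formation, was the member whose difference was shared by all contexts. It stood at 1.65 in the NT control and 49.9 with OHT, and at 28.2 and 95.02 in HOXA9. In PML-RARa it stood at 30.6 and 170 and in MLL-AF9 at 1.06 (1 read) and 162. All 4 OHT values exceed all 4 control values. The OHT value was 30.1-fold the control value in NT (95% exact counting interval 7.90 to 256.0). It was 3.37-fold for HOXA9 (2.27 to 5.11), 5.56-fold for PML-RARa (3.77 to 8.43) and 153-fold for MLL-AF9 (27.0 to 6106). Over the 4 contexts the mean log2 ratio of Lhx2 was 3.68 ± 0.82 (SE, n = 4 pairs, higher in 4 of 4), with a limma adjusted p of 0.04997.

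That call is at the edge of the threshold of 0.05. For Lhx2 the limma adjusted p was 0.032 with a pseudocount of 10, 0.054 with a pseudocount of 0.5, 0.069 with no filter on low values and 0.061 without the context as a block. It was 0.084 to 0.13 without any 1 pair, with mean ratios of 2.80 to 4.34. By edgeR on the recovered reads it was 0.042, and by DESeq2 7.8e-05. Of the 10599 transcripts with a mean of at least 20, limma called 6.40% higher and 7.48% lower, and 10 of the 35 members entered that fit. Lhx2 entered it through its OHT libraries, where it is high, since the mean of its controls alone lies under 20. edgeR called 1276 higher and 959 lower, and DESeq2 1768 and 1362. Lhx2 was the 1 member called higher and 0 were called lower, by each of the 3 tools. The other LIM members were low: Lhx5 reached 10.5, Isl1, a gene of motor neurons and heart progenitors, 8.19, and Lhx9 2.38.

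Six2, which keeps nephron progenitors in a renewing state, was higher with OHT in the contexts whose control was low. Its value was 7.45 in the NT control and 121 with OHT, and 5.29 and 66.8 in MLL-AF9. In HOXA9, where the control already stood at 83.0, OHT gave 57.9, and in PML-RARa the pair stood at 309 and 262. The ratio was 16.2-fold in NT (8.24 to 36.3) and 12.6-fold in MLL-AF9 (5.06 to 40.6), but 0.698-fold in HOXA9 (0.502 to 0.964) and 0.847-fold in PML-RARa (0.710 to 1.01). Over the 4 contexts the mean log2 ratio of Six2 was 1.63 ± 0.92 (SE, limma adjusted p = 0.26).

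En2 and Pitx1 were higher with OHT in HOXA9 and MLL-AF9 and lower in PML-RARa, while both stayed under 20 in the NT pair. En2, which patterns midbrain and cerebellum, stood at 0.827 (1 read) and 9.35 in the NT pair, 64.8 and 117 in HOXA9, 103 and 41.7 for PML-RARa, and 3.18 and 99.6 for MLL-AF9. The MLL-AF9 ratio was 31.4-fold (10.3 to 156), and the PML-RARa ratio 0.403-fold (0.267 to 0.595). Pitx1, which gives the hindlimb its identity, went from 71.4 to 389 in HOXA9 and from 2.12 to 99.6 in MLL-AF9. In PML-RARa it went from 18.2 to 3.57 and in NT it had 1 and 2 reads. The value of 389 was the highest of any member in any library, 5.45-fold its control (4.31 to 6.95). Neither gene passed: the mean log2 ratio was 1.66 ± 0.99 for En2 (SE, limma adjusted p = 0.28) and 1.53 ± 1.18 for Pitx1 (SE, limma adjusted p = 0.38).

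Irx5, an Iroquois gene of heart and retina, had the highest mean of the 35. It was at 1 read (0.827) in the NT control, but at 131, 241 and 364 in the HOXA9, PML-RARa and MLL-AF9 controls. With OHT it stood at 22.9 in NT, 81.4 for HOXA9, 75.0 for PML-RARa and 360.2 for MLL-AF9. The ratio was thus 27.6-fold for NT (4.47 to 1140.3), 0.621-fold for HOXA9 (0.474 to 0.809), 0.311-fold for PML-RARa (0.232 to 0.411) and 0.989-fold for MLL-AF9 (0.839 to 1.16). Its neighbour in the family, Irx2, was at 70.6 and 33.5 in the HOXA9 pair and 41.1 and 4.76 in the PML-RARa pair, and reached 4.16 at most elsewhere. Irx3 never passed 1.91.

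Dlx1 and Dlx2, adjacent genes of forebrain interneurons and facial arches, differed in the same direction in each context, with Dlx1 at the higher value in most libraries. Dlx1 stood at 54.8 in the HOXA9 control and 67.0 in the PML-RARa control, and at 24.4 and 11.9 with OHT. Dlx2 stood at 29.9 and 10.5 in these controls and at 13.6 and 1.19 with OHT. In NT both were at 1 read in the control and 5 reads with OHT, and in MLL-AF9 they went from 3.18 to 13.6 and from 1.06 to 9.55. Dlx3, of skin and placenta, reached 17.4, in the HOXA9 control, the highest value among the members that never came to 20.

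Nkx6-1, a gene of pancreatic beta cells and motor neurons, differed in the same directions as Dlx1. It went from 62.3 to 24.4 in HOXA9 and from 82.3 to 14.3 in PML-RARa, ratios of 0.392-fold (0.243 to 0.617) and 0.174-fold (0.0863 to 0.319). In NT it went from 1.65 to 10.4 and in MLL-AF9 from 5.29 to 20.5. The means over the 4 contexts therefore lay near 0, at 0.03 ± 0.89 for Nkx6-1 and 0.01 ± 0.84 for Dlx1 (log2, SE, limma adjusted p = 0.98 and 0.99). The limits of limma's 95% interval, -2.30 to 2.35 for Nkx6-1 and -2.17 to 2.19 for Dlx1, leave room for changes of more than 2-fold either way.

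**Figure D4:**
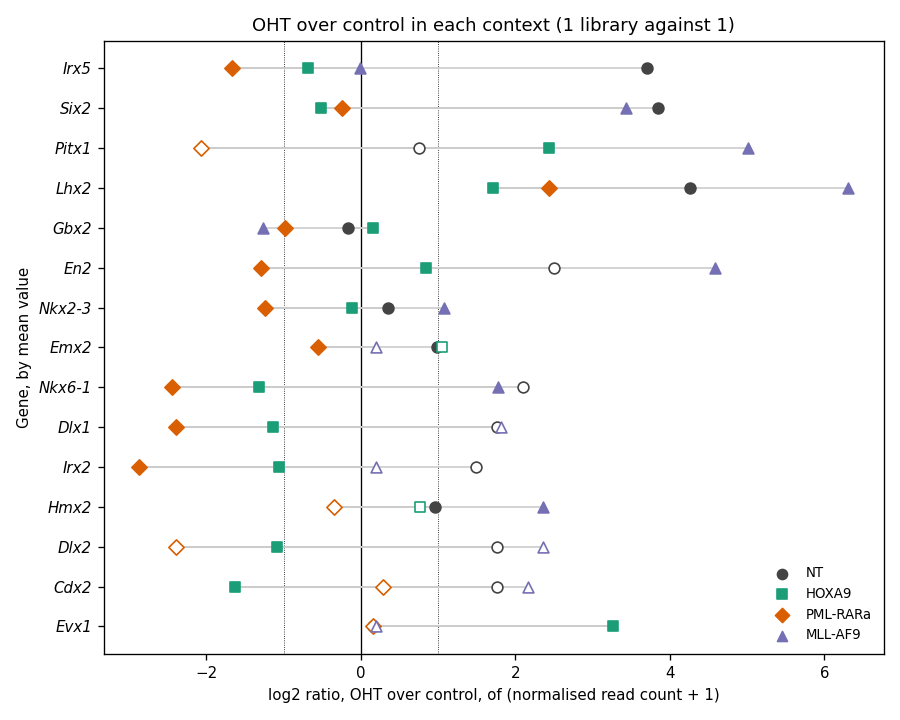
Log2 ratio of OHT over control (x axis, values + 1) in each context (markers) for the 15 genes that reach 20 in some library (y axis, by mean value). Open markers have both libraries under 20, and dotted lines mark 2-fold. Lhx2 alone has all 4 markers right of 1. Nkx6-1, Dlx1 and Dlx2 have HOXA9 and PML-RARa left of -1 and NT and MLL-AF9 right of 1.

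Another set was present in most libraries from the start. Gbx2, which sets the border of midbrain and hindbrain, stood in the controls at 86.0 for NT, 56.5 for HOXA9, 36.4 for PML-RARa and 103 for MLL-AF9, and at 76.9, 63.3, 17.9 and 42.3 with OHT. Its MLL-AF9 ratio was 0.412-fold (0.266 to 0.623), and its mean log2 ratio was -0.56 ± 0.28 (SE, limma adjusted p = 0.21). Nkx2-3, a gene of spleen and gut mesenchyme, was the 1 member at 20 or more in all 8 libraries. It stood at 29.8 and 38.4 in NT, 58.9 and 54.3 in HOXA9, 57.4 and 23.8 in PML-RARa and 43.4 and 92.8 in MLL-AF9. Its mean log2 ratio was 0.02 ± 0.40 (SE, limma adjusted p = 0.97), with a 95% interval of -1.01 to 1.05.

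Emx2, of cerebral cortex and urogenital tract, followed another order of contexts. It was at 40.5 in the NT control and 63.2 in the PML-RARa control, but at 1.66 in HOXA9 and 1.06 in MLL-AF9. With OHT it stood at 81.0, 42.8, 4.52 and 1.36 in the same order. The NT ratio was 2.0-fold (1.38 to 2.92), which falls just short of the mark after the pseudocount (1.98-fold). Hmx2, of inner ear and hypothalamus, went from 3.18 to 20.5 in MLL-AF9 and lay between 9.13 and 21.8 in the other libraries.

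Per kilobase of transcript, a scale on which genes can be set side by side, the means over the 8 libraries were 65.1 for Irx5, 53.8 for Six2, 29.9 for Pitx1 and 28.2 for Gbx2. Lhx2 followed at 23.7, Nkx2-3 at 23.6 and En2 at 15.5. The order within these means rests on single libraries, since the values of Irx5, Six2 and Pitx1 spread over more than 40-fold between libraries.

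Cdx2 and Evx1 reached 20 in 1 context. Cdx2, of trophectoderm and gut, stood at 27.4 in the HOXA9 control, 8.14 with OHT there, and at most 9.52 elsewhere. Evx1, of the posterior embryo and spinal interneurons, was at 2.49 in the HOXA9 control and 32.6 with OHT (13.1-fold, 4.13 to 66.4), and at 1 read in all 6 other libraries. Evx1 lies beside the Hox genes of the A cluster.

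The 5 Pax members, each seen through 1 RefSeq transcript that may not hold all reads of its gene, were low in every library. Pax6, of eye and pancreas, never passed 5.81, Pax3 4.76, Pax9 4.09 and Pax2 3.57, while Pax7, of muscle stem cells, stayed at 1 or 2 reads in each library. The rest of the 20 members under 20 everywhere were Alx4, Barx1, Dlx3, En1, Gsc, Hmx3, Isl1, Lhx5, Lhx9, Irx3, Msx2, Nkx2-2, Onecut2, Tlx3 and Vax1. Their median highest value, with the Pax genes, was 4.99, and 17 of the 20 never passed 10. Most of these values rest on a few reads, so no difference within a context is drawn from them.

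In 5 of the 15 members that reached 20 the exons overlap a gene on the other strand in the GENCODE annotation: Dlx1 (Dlx1as), Emx2 (Emx2os), Gbx2 (D130058E05Rik), Pitx1 (Gm47071) and Evx1 (Evx1os). The library kit does not mark strand, so reads of the partners cannot be told apart. The tables list Dlx1as at up to 16.3 and Emx2os at up to 24.9.

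The control libraries were then set side by side, to ask how these genes stand when an introduced gene is present and Ring1b is labelled wild type. The NT control is shared by the 3 comparisons, so they are not independent. In HOXA9, 10 of 35 members were at least 2-fold higher than in NT with 20 or more (Lhx2, Six2, Nkx6-1, Dlx1, Dlx2, Irx2, Irx5, En2, Cdx2 and Pitx1) and 1 lower (Emx2), beside 6.50% and 4.10% of all transcripts. In PML-RARa, 7 were higher (Lhx2, Six2, Nkx6-1, Dlx1, Irx2, Irx5 and En2) and 1 lower (Gbx2), beside 6.99% and 4.68%. In MLL-AF9, Irx5 was higher and Emx2 lower, beside 4.77% and 5.96%. The members' shares, 28.6% in HOXA9 and 7 of 35 in PML-RARa, lie above those over all transcripts, and 2.86% in MLL-AF9 does not.

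Irx5 in MLL-AF9 had 344 reads against 1 in NT (440.3-fold, 78.5 to 17440). Six2 was 41.5-fold higher in PML-RARa (21.6 to 91.6) and 11.1-fold higher in HOXA9 (5.64 to 25.1). Each of these genes is seen in 1 library per context, and a difference between mice or cultures cannot be told apart from the introduced gene.

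The 3 transduced contexts taken alone gave no member call: 0 of 10 passed by limma, with Lhx2 at 3.49 ± 1.02 (log2, SE, n = 3 pairs, limma adjusted p = 0.13) and the 1 member with an unadjusted p under 0.05. Over all transcripts 26 (0.245%) were called. The difference between the NT ratio and that of the transduced contexts was tested directly, but NT is a single pair, so the spread comes from the 3 transduced pairs alone and NT is assumed to vary like them. By limma 0 of 10 members and 0 of 10599 transcripts (0.00%) passed, while 573 transcripts and 1 member, Irx5, had an unadjusted p under 0.05. The Irx5 ratio was higher in NT than in the others by 4.50 ± 0.74 (log2, SE, limma adjusted p = 0.82), a difference first noticed in these same data.

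The authors' deposited table gives an unadjusted p for each transcript that compares 1 library with 1. In the authors' deposited table for NT it is under 0.05 for Lhx2, Six2 and Irx5, and for MLL-AF9 for Lhx2, Six2, En2 and Pitx1. It is under 0.05 for Pitx1 in HOXA9 and for Lhx2 in PML-RARa. Over all transcripts such values made up 2.91% for NT, 1.82% for HOXA9, 2.32% for PML-RARa and 4.16% for MLL-AF9 of the authors' deposited table.

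The other homeobox and Pax genes outside Hox made a list of 126, of which 90 had a row and 33 entered the limma fit. Of these 33, 1 was called higher with OHT and 1 lower, beside 6.40% and 7.48% of all tested transcripts. Zeb2, a zinc finger and homeodomain factor of myeloid and dendritic cells, rose, with a mean log2 ratio of 1.19 ± 0.14 (SE, limma adjusted p = 0.035), from 1111 to 1521 in the controls and 2393 to 3720 with OHT. Pax8, of thyroid and kidney, fell by 2.52 ± 0.21 on the log2 scale (SE, limma adjusted p = 0.035). Its control values were 11.6 for NT, 49.0 for HOXA9, 27.7 for PML-RARa and 367 for MLL-AF9, and its OHT values 2.08, 7.24, 4.76 and 40.9, lower in 4 of 4 contexts. Without any 1 pair neither passed (lowest limma adjusted p 0.059 for Pax8 and 0.062 for Zeb2).

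Prox1 and Pou4f1 were at least 2-fold higher in 3 contexts without passing the test. Prox1, of lymphatic vessels, had a mean log2 ratio of 1.73 ± 0.56 (SE, limma adjusted p = 0.096), and Pou4f1, of sensory neurons, one of 1.43 ± 0.37 (SE, limma adjusted p = 0.064). Shox2 and Tlx2 were more than 2-fold higher with OHT in every context, but their means, 18.6 and 4.06, were too low to enter the fit. The log2 ratios of Shox2 were 5.37 for NT, 1.67 for HOXA9, 2.297 for PML-RARa and 2.96 for MLL-AF9. Those of Tlx2 were 1.497, 1.78, 1.56 and 2.53 in the same order, and its value never passed 10.9. The list's median log2 ratio in the fit was 0.06, beside -0.03 over all transcripts. Within contexts, 12 of 90 were at least 2-fold higher and 1 lower in NT, beside 7.57% and 4.83% of all transcripts. It was 6 and 7 for HOXA9 (5.08% and 3.43% of all transcripts), and 5 and 14 for PML-RARa (5.00% and 7.65%). For MLL-AF9 it was 10 and 5 (8.11% and 8.75%).

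Of the cofactors through which LIM homeodomain and related factors act (LDB, LMO, SSBP and Groucho genes), 13 of 16 had a row, 7 entered the fit and 0 passed by limma (2 had an unadjusted p under 0.05) or by edgeR or DESeq2. Of 15 tested PRC1 subunit genes 3 fell (Ring1, Pcgf6 and L3mbtl2), and of 10 tested PRC2 subunit genes 3 fell (Suz12, Mtf2 and Phf19), with 0 rises in either list, beside 7.48% of all tested transcripts called lower. In either direction, edgeR called 6 of the PRC1 list and 3 of the PRC2 list, beside 2235 of all 10599 tested transcripts. DESeq2 called 6 and 2, beside 3130 of all tested transcripts.

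Markers of other cell types were summed per library. The 9 haematopoietic markers with a row summed to 8232 to 10513 in the controls and 7075 to 8426 with OHT. Mpo, Gata2, Cebpa and Spi1 made up most of these sums. Kit, a receptor of stem and progenitor cells, was low, at 1.36 (1 read) to 34.5, with 2.49 and 2.71 in the HOXA9 pair. Ptprc, another of these markers, was also low, from 14.8 in the MLL-AF9 control to 44.04 in the PML-RARa OHT library. Each is seen here through 1 RefSeq transcript, which may not hold all reads of its gene. The low values therefore do not show that the cells lacked Kit or Ptprc. Flt3 ran from 9.52 in the PML-RARa OHT library to 109.6 in the HOXA9 control, and Runx1 had no row. Cebpa and Myb fell by limma (adjusted p = 0.040 and 0.035). Stromal and bone markers (9 of 12 with a row) summed to 48.8 to 67.8 in the controls and 46.4 to 61.4 with OHT, with Col3a1, Pdgfra, Pdgfrb, Sp7 and Bglap at 5 reads or fewer in all libraries. Muscle markers (4 of 6) summed to 3.32 to 27.5 and 4.52 to 31.4, with Myog, Myh3 and Actc1 at 5 reads or fewer. 

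Macrophage markers (7 of 7) summed to 1131 to 3306 in the controls and 8909 to 15198 with OHT, and all 7 rose by limma. Endothelial markers (5 of 6 with a row) summed to 40.2 to 114 and 139 to 350.1, with Kdr and Tek called higher and Cdh5 at 5 reads or fewer. Epithelial markers (5 of 6) summed to 715 in the NT control and 1635 with OHT, 2374 and 1943 for HOXA9, 5202 and 3535 for PML-RARa, and 366 and 1151 for MLL-AF9, with Krt5 at 5 reads or fewer. Neural markers (6 of 8) summed to 86.9 and 436, 580.3 and 425, 1128 and 869, and 49.8 and 240.1 in these pairs, with Sox1 and Gfap at 5 reads or fewer and Syp called higher. Both sums were higher with OHT in NT and MLL-AF9 and lower in HOXA9 and PML-RARa, but single genes differed. Nes stood at 754 and 155 in the PML-RARa pair, where Tubb3 stood at 333 and 496, Stmn2 at 25.8 and 149, and Syp at 12.4 and 65.5. Syp stood at 4.15 and 14.5 in the HOXA9 pair. The members' own sum was higher with OHT in NT, HOXA9 and MLL-AF9 and lower in PML-RARa. In HOXA9 that direction rests on Pitx1, at 71.4 and 389, and the sum of the other members was lower with OHT. The part of these cell types in the result was not tested.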

How the data were processed

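The study sequenced mRNA libraries of 8 samples, 1 for each context and genotype, grouped by their labels. Per the labels' protocols a TruSeq kit was used. Per the submitters' processing notes, TopHat, DESeq and build mm9 were used, without versions. The read counter is not given in the sources used here. Per the file headers, the signal columns deposited by the authors hold base means (reads divided by a size factor), the ratio column their fold change, the log2 column its log2, and the p-value column an unadjusted p.

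Each library's values were whole multiples of its lowest one (100% within 0.02), which gave back the reads. limma 3.58.1 (R 4.3.3) was run across all transcripts on log2(value + 1) with the context as a block, over 10599 transcripts with a mean of at least 20, two-sided, with Benjamini-Hochberg adjustment over all of them and a threshold of 0.05. The contexts are the only replication. edgeR 4.0.16 and DESeq2 1.42.0 ran on the recovered reads; edgeR called 2235 transcripts. Fold intervals are exact (Clopper-Pearson) at 95%. Symbols had to equal a member's name; of several IDs the one of highest mean would lead. Members that reach 20 in a library are given with all values and the others by their highest one. Other homeobox genes are named if called or 2-fold apart in at least 3 contexts with 20 or more in the higher library. Shox2 and Tlx2 are named outside that rule. The fit was tested on simulated data. Members, lists and tests were chosen with earlier results of these data known, and the comparison of control libraries was added after the data were seen. Promoters come from RefSeq (GRCm38.p6) and transcript lengths from GENCODE, with no coordinate set beside mm9.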

Additional observations from a re-analysis of the deposited data

Results flagged for a closer look

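Of the 15 members that reach 20 in some library, 2 stood out by their ratios across contexts. Evx1 had a log2 ratio of 3.27 in HOXA9, far from the other 3 contexts (0.16 to 0.20, all pairs at 1 read). The gap to the nearest was 0.987 of the whole range, above Dixon's 95% critical value. With those 3 ratios set by the size factors alone, they carry no spread, so this comparison tests nothing and the value is given as a description. In groups with real spread chance would mark about 1 in 20. Irx5 had a log2 ratio of 3.71 in NT, while HOXA9 (-0.68), PML-RARa (-1.67) and MLL-AF9 (-0.02) lay on the other side of 0. The test of that difference by limma, with NT as a single pair, did not pass after adjustment (adjusted p = 0.82).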

How the results depend on the processing

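The single call, Lhx2, held with a pseudocount of 10, with centred ratios, by edgeR and by DESeq2. The number of members called was 0 with a pseudocount of 0.5, with no filter on low values and without the context block, and 0 on leaving out any 1 pair. Transcripts called numbered 354 with no filter, 0 to 26 on leaving out a pair (2982 to 3319 at an unadjusted limma p under 0.05), 2235 by edgeR and 3130 by DESeq2. Lhx2 kept its sign without any pair (2.80 to 4.34). Means near 0 turned. With a pseudocount of 10, Nkx6-1 had -0.30, Dlx1 -0.35 and Irx5 -0.15. On leaving out a pair, Nkx2-3 ran from -0.33 to 0.44, Nkx6-1 from -0.66 to 0.85, Dlx1 from -0.59 to 0.81 and Irx5 from -0.79 to 1.0. With 10 in the higher library, 5 members were higher in NT. Lower members numbered 2 in HOXA9 with a pseudocount of 10, and with a 4-fold mark 0 for HOXA9, 3 for PML-RARa and 0 for MLL-AF9. At a mark of 50 the members present numbered 1 in the NT control, 3 in NT OHT, 7 in HOXA9 OHT and 3 in PML-RARa OHT. The cause was not tested. Shares over all transcripts at these other settings are not given here, so these member counts are not set against a background. The other 77 alternative counts stayed within 1.5 times. For members near 1 read, depth limits any statement.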
